A study of Mus musculus with 18 samples.

Results

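Among the genes measured in mouse dorsal root ganglia, 20 genes with systematic placeholder symbols separated ganglia of an injured sciatic nerve from sham ganglia without overlap. They were chosen by their CPM (a gene's count per 1000000 counts of the sample). A member had a symbol of the form Gm plus digits or ending in Rik, a mean count of at least 20 over all 18 samples, and CPM in all 6 axotomized samples above, or below, those in all 6 sham samples. Of the 15730 genes counted, 1650 had such a symbol, 1281 of them reached the mean count, and 20 met the rule, 10 higher and 10 lower after axotomy. That is 0.781% of the 1281 in each direction. Among all 14593 genes with a mean count of 20 or more, 2.6% were higher and 0.905% lower by the same criterion. The rule used the axotomized and sham values themselves, so these values are given as a description, with no test.

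Dorsal root ganglia hold the cell bodies of sensory neurons, whose single axon splits into a peripheral branch in the nerve and a central branch that enters the spinal cord. Cutting the peripheral branch is known to switch on a programme of growth-associated genes in the neuron, while cutting the central branch in the dorsal columns does so weakly. Placeholder symbols are given to genes and transcripts before any function is known. They cover long noncoding RNAs, transcripts antisense to known genes, pseudogenes and protein-coding genes that later receive a proper name.

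Every sample was a pool of sciatic ganglia (L4-L6) from 2 C57BL/6 mice of 6 to 8 weeks, collected 24 hours after surgery, with 3 samples in each of 6 groups. SNA_Saline had a sciatic nerve injury with saline, and Sham_Saline the sham operation with saline. SNA_NAC had the nerve injury in the presence of the antioxidant N-acetyl-cysteine at 30 mM. Sham_H2O2 had the sham operation with the oxidant hydrogen peroxide at 13 mM (the labels write its name with a zero). DCA had a dorsal column injury and LAM a laminectomy, the opening of the vertebral bone without injury to the cord. SNA_Saline and SNA_NAC are called axotomized here, and Sham_Saline and Sham_H2O2 sham. DCA and LAM entered the rule only through the mean count over all samples, not through the separation. No untreated ganglia, no genotype other than C57BL/6 and no sex are given in the sources used here.

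Total counts ran from 6472476 in Sham_H2O2 replicate 3 to 42435331 in SNA_NAC replicate 1, so low members had few reads in the shallowest library. All 7 neuronal markers searched were in the count table and summed to 6189 to 10202 CPM in sham and 6649 to 7663 CPM in axotomized samples, and 16 of 18 injury-response genes, Atf3 and Sox11 among them, were higher without overlap in axotomized samples. Skeletal muscle markers, all 5 in the table, summed to between 5.6 and 1092 CPM in sham and between 21.3 and 220 CPM in axotomized samples. Macrophage markers, 6 genes in the table, summed to 43.8 to 59.3 CPM in sham and 55.8 to 65.3 CPM in axotomized samples. Neither of the 2 T cell markers was in the table. The part of other cell types in the members' values was not tested, and in whole ganglia fewer cells of a type and less RNA per cell cannot be told apart.

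The name uncharacterised no longer holds for 7 of the 20 members. RefSeq gives Gm7534 as Zpld2, Gm11549 as Smim43, 2810403A07Rik as Khdc4, 4930529M08Rik as Cfap61, 4930452B06Rik as Cfap20dc, 6430573F11Rik as Trmt9b and 2010300C02Rik as Cracdl, all protein-coding. In GENCODE M21 (build GRCm38, the mm10 of the submitters' processing notes), 19 members were found and Gm20204 was not. Of the 9 higher members found, 5 were protein-coding and 4 noncoding; of the 10 lower members, 6 were protein-coding and 4 noncoding. Among the 1219 other placeholder genes of that mean count with an entry, 34.9% were protein-coding.

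**Figure D1:**
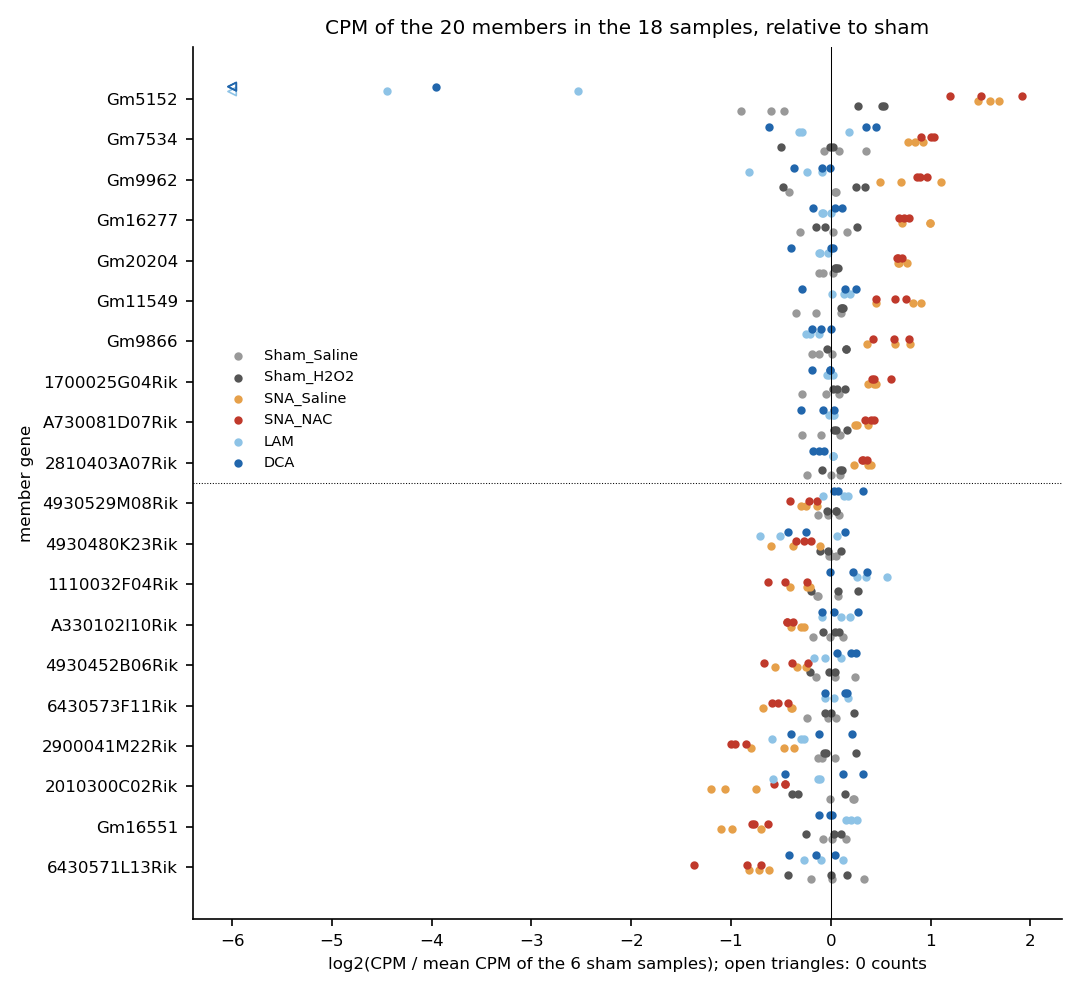
The 20 members (vertical axis) by sample: each point is a sample's CPM relative to the mean of the 6 sham samples (log2, horizontal axis), coloured by group, with members higher in axotomized samples above the dotted line and members lower below it. The axotomized points (orange and red) stand apart from the sham points (greys) by the rule, most widely for Gm5152 and Gm20204, while the LAM and DCA points (blues) lie among the sham points for most members and far below them for Gm5152.

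The largest difference belonged to Gm5152, a gene of chromosome 5 (chr5:10242041-10246526, minus strand) that GENCODE calls protein-coding and RefSeq a pseudogene. It belongs to a family of near-identical genes that includes Speer1. Its longest transcript of 824 bases matched 17 other genes at 95.1% to 97.7% identity, none of which was in the count table. For 14 of the 17 the longest identical stretch reached the read length of 100 bases, the longest being 225 bases, shared with Gm8879. Of the 725 possible 100-base reads of the transcript 216, or 29.8%, occurred unchanged in a copy. A 160-base coding exon of Gm5152 (chr5:10245173-10245332, minus strand) is shown with the same exon of the 2 closest copies, Gm8871 (chr5:11041340-11041499, plus strand) and Gm8879 (chr5:11128866-11129025, plus strand), because it shows how little separates them. Capitals mark the bases that differ from Gm5152, 3 in Gm8871 and 2 in Gm8879.
Gm5152: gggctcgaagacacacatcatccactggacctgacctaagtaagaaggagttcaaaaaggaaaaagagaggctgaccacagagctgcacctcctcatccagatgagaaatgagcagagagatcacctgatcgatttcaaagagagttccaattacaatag
Gm8871: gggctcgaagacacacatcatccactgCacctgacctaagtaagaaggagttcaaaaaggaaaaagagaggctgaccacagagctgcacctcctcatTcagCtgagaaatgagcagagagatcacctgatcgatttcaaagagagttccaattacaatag
Gm8879: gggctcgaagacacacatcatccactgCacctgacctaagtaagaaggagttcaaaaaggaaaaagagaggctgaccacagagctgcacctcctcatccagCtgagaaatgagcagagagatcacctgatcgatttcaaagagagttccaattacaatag

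Reads assigned to Gm5152 are therefore uncertain as to which copy they came from, and the counts are small. Gm5152 had 0.775, 0.847 and 0.63 CPM in Sham_Saline and 1.67, 1.42 and 1.7 CPM in Sham_H2O2. Axotomized samples had 3.77, 3.27 and 3.54 CPM in SNA_Saline and 2.69, 4.44 and 3.33 CPM in SNA_NAC. The lowest axotomized sample was 1.58 times the highest sham sample, and the means differed 2.99-fold, from raw counts of 9 to 30 in sham and 31 to 114 in axotomized libraries. In the spinal arm Gm5152 had 2, 1 and 0 counts in LAM and 2, 0 and 0 in DCA. The libraries with 0 counts had floors, at 3 counts, of 0.101 CPM in LAM replicate 3, 0.254 in DCA replicate 2 and 0.124 in DCA replicate 3; these cover counting error only. All 12 sciatic-arm samples lay above all 6 spinal-arm samples, from 0.63 CPM upward against 0.203 CPM at most. Of 14593 genes 0.302% showed this order and 0.13% the opposite one. Of the 20 members only Gm5152 was in the former class and 0 were in the latter. Gm5152 reached the mean count of 20 only with its axotomized libraries, at 31 to 114 counts. Its order between the arms is therefore a description, and nothing is read from the share. Gm5152 also stood higher in each Sham_H2O2 sample than in each Sham_Saline sample. The arms differ in the site of surgery and share no group, so any other difference between their animals cannot be told apart from it. The 18 injury-response genes also summed lower in the spinal samples, to 753 to 825 CPM in LAM and 817 to 841 CPM in DCA, than in sham samples, with 896 to 1185 CPM. Sox11 alone was at 0.203 to 0.676 CPM in LAM and 0.423 to 0.537 CPM in DCA, beside 0.618 to 1.8 CPM in sham samples.

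Among the higher members, 3 noncoding transcripts run antisense to genes that themselves separated the same samples. They are Gm16277, antisense to Gfra1, the co-receptor for the neurotrophic factor GDNF; Gm9962, antisense to Gabra5, a subunit of the GABA-A receptor; and A730081D07Rik, antisense to Gcnt2, an enzyme that branches blood-group I sugar chains. Such an overlap with an opposite-strand separating gene was found for 3 of 19 members with a position (15.8%), for 1.84% of the 489 other separating genes (9 genes) and for 0.503% of all 14524 positioned genes with a mean count of 20 or more. Members were chosen for separating, so a gene that shares reads with a separating gene was more likely to be chosen, and nothing is read from these shares. The other measured opposite-strand partners did not separate. They were Pak1ip1, which shares 86 exonic bases with A730081D07Rik (log2 ratio 0.23), Crnkl1, which shares 57 bases with 4930529M08Rik (0.04), and Gm17641, which shares 681 bases, or 26.4%, with 1110032F04Rik (-0.55).

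The shared stretches are given here because reads from them can belong to either gene. Gm9962 (chr7:57387272-57409941, plus strand, 3 exons) shares 148 of its 1417 exonic bases with Gabra5, all within the coding sequence of that gene. A730081D07Rik (chr13:40956414-41001151, minus strand, 5 exons) shares 482 of 1804 bases with Gcnt2, of which 79 bases lie in its coding sequence. Both stretches are written on the strand of the noncoding transcript, at chr7:57408762-57408909 and chr13:40958261-40958339, in lower case throughout because no base is singled out.
Gm9962: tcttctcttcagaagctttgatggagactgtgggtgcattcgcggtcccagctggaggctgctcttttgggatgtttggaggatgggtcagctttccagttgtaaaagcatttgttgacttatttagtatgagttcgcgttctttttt
A730081D07Rik: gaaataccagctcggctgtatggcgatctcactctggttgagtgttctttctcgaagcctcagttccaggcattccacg
Gm16277 (chr19:58204139-58236047, plus strand, 2 exons) shares 416 of its 662 exonic bases with Gfra1, none of them in the coding sequence.

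Gm16277 and A730081D07Rik had the highest levels per length of all members. Their median FPKM (fragments per kilobase of transcript and per 1000000 reads) in the 6 sham samples was 63.9 in both. Gm16277 ran from 35.2 through a median of 42.9 to 52.2 CPM in sham and from 69.7 through 73.4 to 86.6 CPM in axotomized samples, a 1.77-fold difference of means. Gfra1 went from a median of 185 to 366 CPM, with a log2 ratio of 0.95 against 0.82 for Gm16277. The count of Gm16277 was 21.9% of that of Gfra1 on average. Across the 18 samples the log2 ratio between both genes (after adding 0.1 CPM to each) had an SD of 0.20, above the 0.06 that counting alone gives. In SNA_Saline it was 86.4, 71.5 and 86.6 CPM and in SNA_NAC 69.7, 72.2 and 74.7 CPM, while Gfra1 was 362, 364 and 340 and then 369, 373 and 375 CPM.

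The log2 ratio of A730081D07Rik to Gcnt2 varied less over the 18 samples than its ratio to any other gene counted. Its SD was 0.042, and counting alone gives 0.038. The member had 93 to 128 CPM in sham and 134 to 153 CPM in axotomized samples, a log2 ratio of 0.34, beside 0.31 for Gcnt2, and its count was 23.8% of that of Gcnt2. The points of this pair lie along a line through sham, axotomized and spinal samples alike. Gm9962 was low, with 0.773 to 1.37 CPM in sham and 1.52 to 2.32 CPM in axotomized samples, a log2 ratio of 0.85 beside 0.72 for Gabra5 and a count 9.69% of its partner's. Its log2 ratio to Gabra5 had an SD of 0.28, beside 0.37 from counting its few reads. The counting values of all pairs have no CPM added and take the reads of both genes as independent. Observed and counting SD are therefore not fully alike, least so at the low level of Gm9962.

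Whether the counting used strand could not be read from the labels, although the kit marks it. The count table holds 89 genes of which at least 99% of the exonic bases lie inside exons of an opposite-strand gene in the table. Their median mean count was 87.2, or 17.8% of the opposite gene's count at the median. The share ran from 0.582% to 157% over the 89 genes. The correlation of log2 CPM with the opposite gene, after adding 0.1 CPM to each, had a median of 0.69. Counts of the antisense members can thus hold reads of their partners, and how far they do was not tested.

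**Figure D2:**
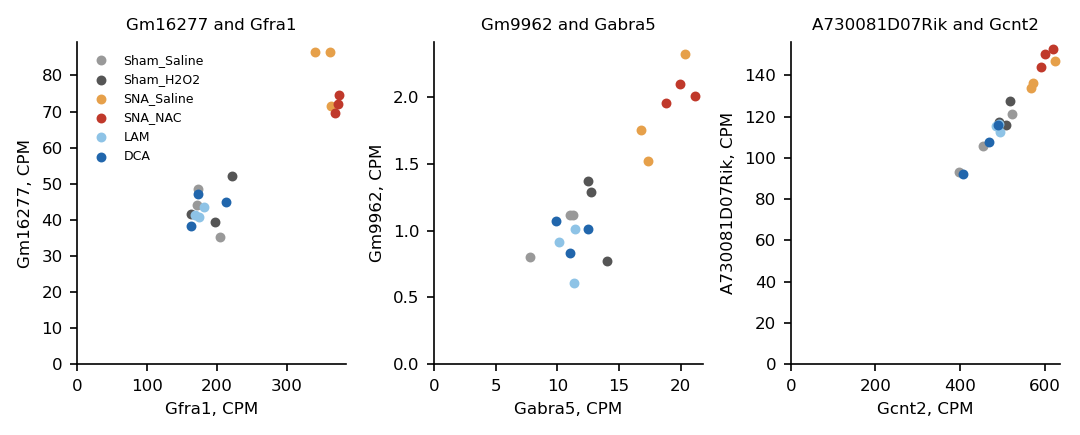
CPM of each antisense member (vertical axis) against its opposite-strand partner (horizontal axis), 1 point per sample, coloured by group, with both axes starting at 0. In all 3 panels the 6 axotomized samples lie to the upper right of the sham samples; the points of A730081D07Rik and Gcnt2 fall along a line, and those of Gm16277 and Gfra1 spread.

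Apart from Gm5152, the protein-coding member with the widest difference upward was Gm7534 (Zpld2, a zona pellucida-like domain gene). It had 1.45, 1.95 and 1.61 CPM in Sham_Saline, 1.55, 1.51 and 1.08 CPM in Sham_H2O2, 2.6, 2.75 and 2.89 CPM in SNA_Saline and 3.06, 2.86 and 3.12 CPM in SNA_NAC. The axotomized mean was 1.89 times the sham mean, and the lowest axotomized sample was 1.33 times the highest sham sample. Gm11549 (Smim43, a small integral membrane protein) ran from 9.96 to 13.8 CPM in sham and from 17.3 to 23.8 CPM in axotomized samples, a ratio of 1.6. Stretches of up to 104 bases in it resemble 3 other genes at 95.1% to 95.2% identity. 1700025G04Rik was among the most abundant members, with 82.8 to 112 CPM in sham and 131 to 155 CPM in axotomized samples, a ratio of 1.37. 2810403A07Rik (Khdc4, an RNA-binding protein of pre-mRNA splicing) had 24.2 to 30.7 and 33.5 to 37.5 CPM, a ratio of 1.26. These groups do not overlap, but the gap between the nearest samples was only 1.09 times for Khdc4.

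Gm20204, which has no position in the tables used here, had the least spread. It measured 50.8, 56.1 and 52.1 CPM in Sham_Saline, 58.1, 57.1 and 56.9 CPM in Sham_H2O2, 88.2, 93.6 and 88.8 CPM in SNA_Saline and 87.8, 90.2 and 87.5 CPM in SNA_NAC. The pooled SD within groups was 0.05 on the log2 scale, against a log2 ratio of 0.69. With LAM at 51.3, 50.9 and 54.2 CPM and DCA at 55.1, 56 and 41.9 CPM, the spinal samples lay within or below the sham range.

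Gm9866 is a long intergenic noncoding RNA (chr12:27050950-27160633, minus strand) whose nearest measured gene on the right, 173.6 kb away, is Sox11, a transcription factor of the injury response. Gm9866 had 8.35 to 10.6 CPM in sham and 12.2 to 16.4 CPM in axotomized samples, a log2 ratio of 0.62. Sox11 itself was at 0.618 to 1.8 CPM in sham and 2.85 to 5.07 CPM in axotomized samples, a log2 ratio of 1.83. In the other direction Cmpk2, at 571.1 kb, did not separate. Having a separating gene as an adjacent measured gene was seen in 3 of 19 members (15.8%), in 10.4% of the other separating genes and in 6.97% of all positioned genes. The other pairs were Gm16277 with Ccdc172 (log2 ratio 0.54) and 6430573F11Rik, which was lower, with Lonrf1, which was higher (0.36).

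Of the members lower after axotomy, 6430571L13Rik and Gm16551 differed most. 6430571L13Rik, protein-coding, had 9.05, 13.1 and 10.5 CPM in Sham_Saline, 10.4, 11.7 and 7.73 CPM in Sham_H2O2, 5.91, 6.34 and 6.8 CPM in SNA_Saline and 6.43, 4.02 and 5.84 CPM in SNA_NAC. Its sham mean was 1.77 times the axotomized mean. Gm16551 had 25.3, 23 and 21.5 CPM in Sham_Saline, 23.2, 24.4 and 19.2 CPM in Sham_H2O2, 10.6, 14 and 11.4 CPM in SNA_Saline and 14.7, 13.2 and 13.4 CPM in SNA_NAC. Its ratio was likewise 1.77, with the lowest sham sample 1.3 times the highest axotomized sample, the widest gap among the lower members. Gm16551 is a noncoding transcript (chr9:74847983-74860134, plus strand) that shares 569 of its 3708 exonic bases with another transcript on the same strand, Gm20649. Neither of its measured neighbours, Wdr72 and Fam214a, separated.

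The sequences upstream of the start sites are shown for Gm9866 and Gm16551, the noncoding members with the largest difference in each direction among those with a promoter in the RefSeq table and no antisense overlap with a measured gene. They are the 250 bases before the RefSeq start (GRCm38.p6, chr12:27160517-27160766, minus strand, and chr9:74848187-74848436, plus strand), with CG dinucleotides in capitals. Gm9866 has 6 of them at 46% GC and Gm16551 has 13 at 50.4% GC, beside medians of 6 and 52.4% over 32851 promoters. GENCODE starts both genes further upstream, so its gene models reach into or cover these windows.
Gm9866: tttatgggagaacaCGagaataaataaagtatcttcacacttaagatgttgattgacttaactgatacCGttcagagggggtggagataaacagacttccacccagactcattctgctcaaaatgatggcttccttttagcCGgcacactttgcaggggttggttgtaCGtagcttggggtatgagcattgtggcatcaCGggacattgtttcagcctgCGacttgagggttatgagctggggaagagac
Gm16551: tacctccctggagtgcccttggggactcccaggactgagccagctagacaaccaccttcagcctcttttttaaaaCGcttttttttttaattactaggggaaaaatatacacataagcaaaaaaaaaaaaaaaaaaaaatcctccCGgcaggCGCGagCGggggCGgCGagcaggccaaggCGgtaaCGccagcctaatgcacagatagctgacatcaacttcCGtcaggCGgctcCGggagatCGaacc
In the 13 member promoters in the RefSeq table, both strands were searched for TGANTCA (bound by AP-1), TGACGTCA (CRE and ATF), TGACNNNGC (the Nrf2 element) and TTCNNNGAA (STAT) (a TGANTCA can lie within a TGACNNNGC). These letters occurred in 0 of the 13 windows for each motif and in 6.75%, 1.55%, 10.2% and 7.02% of all 32851 windows of the same length.

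2900041M22Rik, a noncoding RNA of chromosome 11, had 5.04 to 6.57 CPM in sham and 2.76 to 4.27 CPM in axotomized samples, a log2 ratio of -0.72. 2010300C02Rik (Cracdl) had the same log2 ratio from fewer reads, with 1.85 to 2.87 CPM in sham and 1.06 to 1.77 CPM in axotomized samples. In it the samples with saline differed more (log2 ratio -1.15 for SNA_Saline over Sham_Saline) than SNA_NAC and Sham_H2O2 did (-0.32). In 2900041M22Rik the order was the reverse, -0.48 and -0.99. Neither difference was tested here. 6430573F11Rik (Trmt9b, of a tRNA methyltransferase family) had 5.88 to 8.19 and 4.34 to 5.33 CPM, a log2 ratio of -0.50.

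The other 5 lower members differed by log2 ratios between -0.24 and -0.40. They were 4930452B06Rik (Cfap20dc), 4930529M08Rik (Cfap61, a protein of the ciliary axoneme), the noncoding A330102I10Rik and 4930480K23Rik, and 1110032F04Rik, a protein-coding gene of a single exon. 1110032F04Rik was the most abundant lower member, with 47.1 to 65.5 CPM in sham and 35 to 46.9 CPM in axotomized samples, so its groups nearly touch. For scale, the median log2 ratio was 0.69 over the 10 higher members, -0.45 over the 10 lower members and -0.05 over all 14593 genes, of which the middle 90% lay between -0.55 and 0.35. Per length the members spanned from 0.497 median FPKM in sham for 2010300C02Rik to 63.9. FPKM follow the counts by a fixed factor per gene and sample and are no separate measurement.

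**Figure D3:**
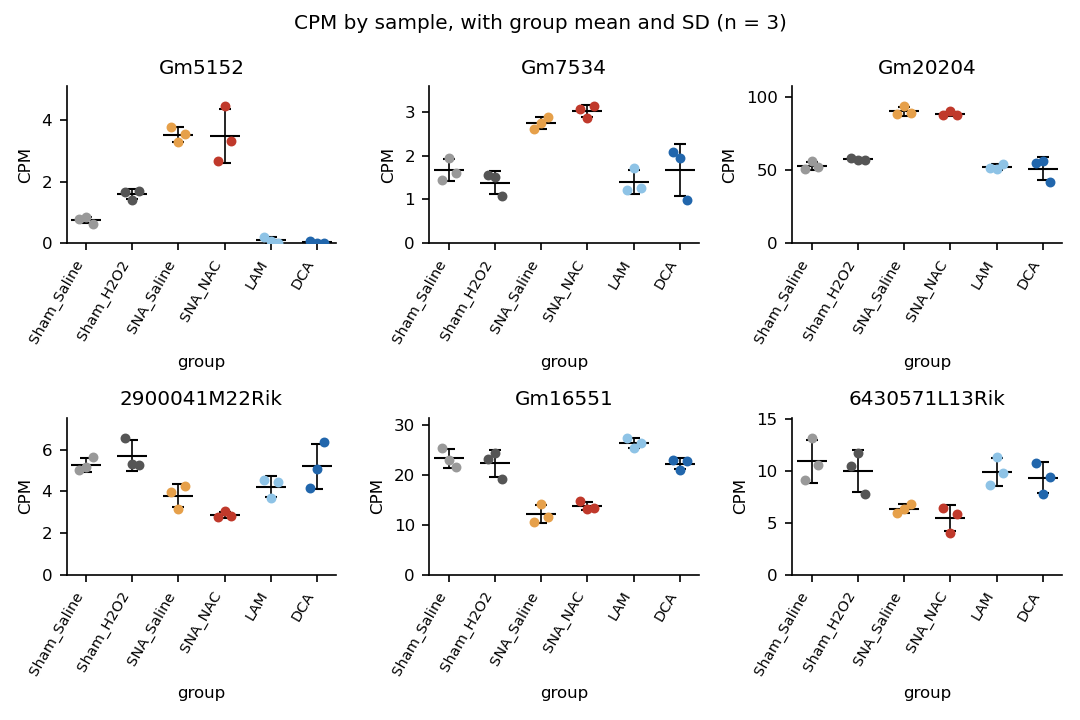
CPM (vertical axes, from 0) of 6 members in the 6 groups (horizontal axes); points are samples, and the bars give the group mean and SD of 3 samples. Gm5152, Gm7534 and Gm20204 (upper row) are higher and 2900041M22Rik, Gm16551 and 6430571L13Rik (lower row) lower in SNA_Saline and SNA_NAC than in both sham groups, and LAM and DCA lie within or beyond the sham range for most of the others. Gm5152 is at or near 0 in both. For 2900041M22Rik the 3 LAM samples and DCA replicate 1 lie below all sham samples, toward the axotomized ones. DCA replicate 1 of Gm7534 lies above all sham samples, likewise toward the axotomized ones.

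At the edges of the rule the separation was thin. Just inside stood 4930480K23Rik, 4930529M08Rik and 1110032F04Rik, whose nearest sham sample was 1.001, 1.003 and 1.004 times the nearest axotomized sample. Just outside stood 2810004N23Rik, 2610035D17Rik and 2310022B05Rik, at 0.996, 0.993 and 0.992. The 3 just inside were no longer separated when counts were scaled by TMM or by DESeq2 size factors, whereas all 10 higher members still were. At the mean count, Gm9962 with 25.1, Gm5152 with 28.3 and 4930480K23Rik with 35.7 were nearest inside, and 1500012K07Rik with 18.5, Gm7785 with 18.4 and Gm3510 with 14.9 nearest outside. Gm9962 and Gm5152 reached the minimum of 20 only with their axotomized libraries. A gap of at least 1.2 times left 5 higher members (Gm5152, Gm7534, Gm16277, Gm20204 and Gm11549) and 1 lower member, Gm16551. Leaving out a library can only loosen the rule. Without Sham_H2O2 replicate 3, the shallowest, 25 placeholder genes were higher and 34 lower, the present 20 included. The count of lower placeholder genes also moved beyond 1.5 times without Sham_Saline replicate 1 (19), Sham_Saline replicate 2 (20), SNA_Saline replicate 3 (18) or Sham_H2O2 replicate 1 (17). The share over all genes was not computed without these libraries, so nothing is read from these counts. For comparison, of 41 long noncoding RNAs with proper names, 24 were in the table and 0 separated. Of all genes with a mean count of 20 or more, 2.6% were higher and 0.905% lower, so 0 of 24 is near that share. The log2 ratios of these RNAs had a median of 0.04 and ran from -0.33 for Miat to 0.71 for Snhg1.

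The dorsal column groups address the same transcripts after an injury of the central branch. The rule used them only in the mean count, not in the separation. In 18 of 20 members all 3 DCA samples lay on the sham side of the axotomized range (10 of 10 higher and 8 of 10 lower), and in 17 of 20 all 3 LAM samples did (10 and 7). Among all genes that met the rule regardless of symbol the shares for DCA were 92.9% of 380 higher and 73.5% of 132 lower genes, and for LAM 89.2% and 75.8%. The exceptions were 4930480K23Rik and 2900041M22Rik in both groups, and 2010300C02Rik in LAM. In 2900041M22Rik, LAM had 4.57, 3.67 and 4.46 CPM and DCA 4.17, 5.07 and 6.36 CPM, so 1 sample of each fell within the axotomized range.

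Between DCA and LAM 0 of the 20 members passed an adjusted p of 0.05 in edgeR's quasi-likelihood test, as did 0 of all 15730 genes (0%). DESeq2 called 0 members and 2 genes in all, with 1 member at an unadjusted p under 0.05. At an unadjusted p under 0.05 edgeR gave 1 of the 20 members, where all genes gave 5.04%. That member was Gm16551, with 22.2 ± 1.06 CPM in DCA and 26.3 ± 0.99 CPM in LAM (SD, n = 3 each). The fitted log2 fold change was -0.26 (95% interval -0.52 to -0.01, edgeR adjusted p = 0.624). Its log2 ratio of mean CPM between axotomized and sham samples was -0.82. That is a different measure, from samples the rule used, so the 2 values are not compared. 2900041M22Rik, next by p, had a log2 fold change of 0.28 (95% interval -0.08 to 0.65, edgeR adjusted p = 0.624). Without overlap, 0 members were higher and 2 lower in DCA, Gm16551 and 2810403A07Rik, beside 12.1% and 9.92% of all genes. The mean of DCA minus LAM had the sign of the axotomized difference in 7 of 20 members. For Gm5152 both groups were at or under 3 counts per library, and no fold is given. The number at an unadjusted p under 0.05 was 0 without LAM replicate 1, LAM replicate 3 or DCA replicate 2. It was 2 without DCA replicate 1. For these fits and for DESeq2 the share over all genes was not computed, so nothing is read from their counts of members.

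The antioxidant comparison, SNA_NAC against SNA_Saline, addresses the effect of N-acetyl-cysteine in axotomized ganglia. Both groups stand on the same side of the rule, which favours genes with little spread among these 6 samples. Again 0 of 20 members and 0 of 15730 genes (0%) had an edgeR adjusted p under 0.05, and DESeq2 called 0 of either, with 0 members at an unadjusted p under 0.05. At an unadjusted p under 0.05 edgeR gave 2 members, where all genes gave 2%. 2900041M22Rik had 2.88 ± 0.148 CPM with N-acetyl-cysteine and 3.8 ± 0.567 CPM with saline (SD, n = 3 each). The fitted log2 fold change was -0.40 (95% interval -0.79 to -0.02, edgeR adjusted p = 1). 2010300C02Rik had 1.73 ± 0.0713 and 1.22 ± 0.201 CPM (SD, n = 3 each). The fitted log2 fold change was 0.50 (95% interval 0.01 to 0.98, edgeR adjusted p = 1). These were also the 2 members whose groups did not overlap, 1 in each direction, beside 9.28% of all genes higher and 6.26% lower. The 10 higher members had log2 fold changes between -0.17 and 0.15. For Gm20204 the interval was -0.24 to 0.20. The rule used all 6 samples of this comparison, so the members' fold changes in it are given as a description. The number at an unadjusted p under 0.05 was 0 without SNA_Saline replicate 1, SNA_NAC replicate 1 or SNA_NAC replicate 3. It was 1 without SNA_Saline replicate 3 or SNA_NAC replicate 2. For these fits and for DESeq2 the share over all genes was not computed, so nothing is read from their counts of members.

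The oxidant comparison, Sham_H2O2 against Sham_Saline, addresses hydrogen peroxide at a nerve without the injury. The rule again favours genes with little spread here. In edgeR 0 of 20 members and 0 of all genes (0%) had an adjusted p under 0.05, and DESeq2 called 0 members and 4 genes in all, with 1 member at an unadjusted p under 0.05. At an unadjusted p under 0.05 edgeR gave 1 of 20 members, where all genes gave 9.15%. That member was Gm5152, with 0.751 ± 0.111 CPM under saline and 1.6 ± 0.157 CPM under hydrogen peroxide (SD, n = 3 each). The fitted log2 fold change was 1.04 (95% interval 0.22 to 1.86, edgeR adjusted p = 0.449). A730081D07Rik, next by p, had a log2 fold change of 0.19 (95% interval -0.03 to 0.42, edgeR adjusted p = 0.449). Without overlap, 3 members were higher (Gm5152, Gm20204 and Gm11549) and 0 lower, beside 2.33% and 2.8% of all genes. The rule used all 6 samples of this comparison, so the members' fold changes in it are given as a description. In the 10 members higher in axotomized samples they ran from -0.24 (Gm7534) to 1.04 (Gm5152), with a median of 0.18. The median over all genes was -0.02. In the 10 lower members they ran from -0.26 to 0.15, with a median of 0.02. The number at an unadjusted p under 0.05 was 3 without Sham_Saline replicate 1 and 1 without any other sample. For these fits and for DESeq2 the share over all genes was not computed, so nothing is read from their counts of members.

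**Figure D4:**
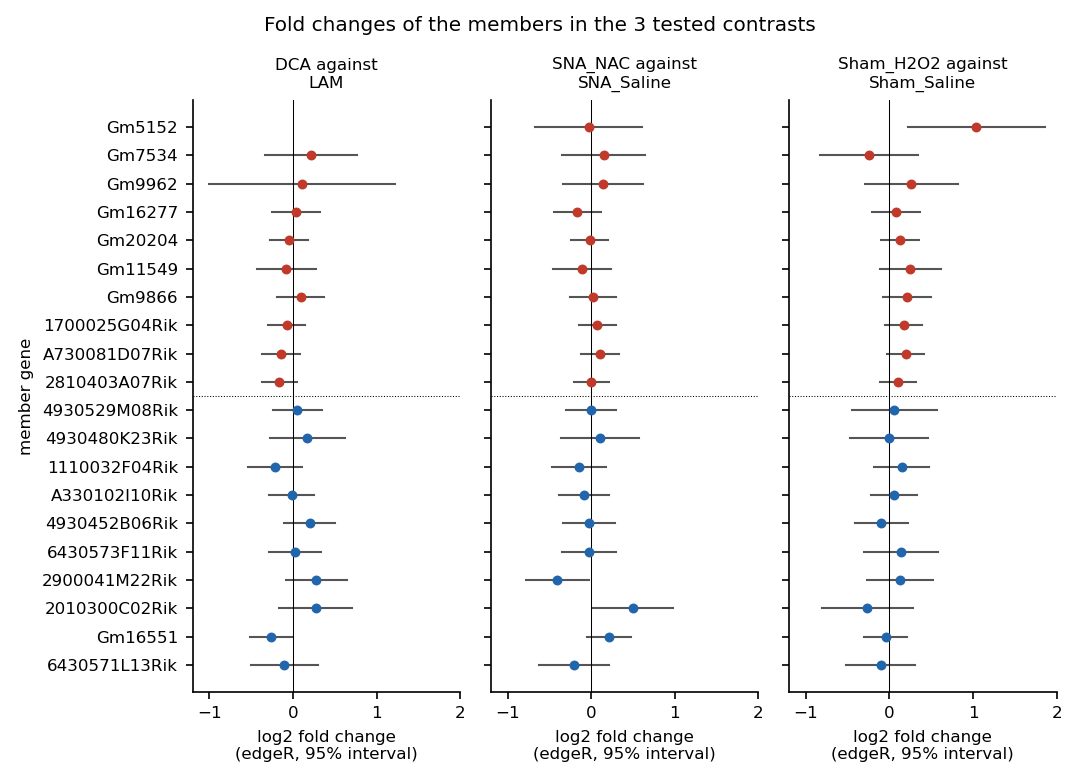
Log2 fold change of each member (vertical axis) with its 95% interval from edgeR's quasi-likelihood fit (horizontal axis) in the 3 tested contrasts. Red points are members higher and blue points members lower in axotomized samples. The separation in the rule used the samples of the antioxidant and oxidant contrasts. DCA and LAM entered the rule only through the mean count. Most intervals include 0; those that do not are Gm16551 in DCA against LAM, 2900041M22Rik and 2010300C02Rik in SNA_NAC against SNA_Saline and Gm5152 in Sham_H2O2 against Sham_Saline, and Gm5152 is not drawn in DCA against LAM.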

How the data were processed

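RNA from 18 pooled samples was sequenced from one end with 100 cycles after a strand-specific mRNA library preparation, 6 libraries to a lane on 3 lanes, per the labels' protocols. The authors deposited whole-number counts per gene for 15730 genes and FPKM for 45904 features; per the submitters' processing notes the tools included TopHat2 2.0.12, Bowtie2 2.2.3, HTSeq 0.6.0 and the build mm10, with no settings given. The deposited FPKM equal the counts per length up to a fixed factor (SD of the log2 FPKM to CPM ratio 0.00081), so they come from the same reads. CPM were computed from column sums. Tests used edgeR 4.0.16 in R 4.3.3 (TMM, filterByExpr, which removed no gene, glmQLFit, glmQLFTest) with all 18 samples in 1 fit, Benjamini-Hochberg adjustment over all genes and a threshold of 0.05. Standard errors and intervals follow from the test's p and degrees of freedom. Annotation came from GENCODE M21 and RefSeq GRCm38.p6; near-identical copies were alignments of at least 95% identity over at least 100 bases. Scripts were tested on simulated data.

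Members and lists were chosen with earlier results of these data known; the checks of copies, of strand and of the closeness of gene pairs were chosen after the data were seen. Named were members with the largest ratios at a mean count of 50 or more, members and genes nearest each threshold, members overlapping or adjoining injury or separating genes, members with a current symbol or a protein, and, where none passed, the 2 with the smallest p per contrast; all 20 members are given by name. Groups and replicate numbers came from sample titles, and the number equals the lane. Deviations of same-numbered samples from their group means correlated between -0.23 and 0.56 across genes in the 3 contrasts. Every within-group pair differed beyond counting noise (lowest chi-square over its degrees of freedom 3.96). With 3 pools per group, p-values measure the spread between pools. Floors cover counting error only. Alternatives were DESeq2 1.42.0, other scalings, count filters, thresholds, fits of 2 groups, a replicate block, GC and length offsets, and leaving out each sample.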

Additional observations from a re-analysis of the deposited data

Results flagged for a closer look

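Gm13644, a placeholder gene listed in the FPKM table and not in the count table, lay outside the comparisons above and stood higher in every axotomized sample than in any control. Its mean was 5.12 FPKM in the 6 axotomized samples (4.51 to 5.64) and 1.55 FPKM in the 6 sham samples (1.11 to 2.61). It was at 0.67 to 1.26 FPKM in LAM and 0.702 to 0.871 FPKM in DCA. The table was searched for genes that separate these samples, so this is a description with no test, and the reads behind the values are not known.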

How the results depend on the processing

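With a gap of at least 1.2 times between axotomized and sham samples, 5 members were higher and 1 lower. Leaving out 1 sample, which can only loosen the rule, gave 10 to 25 higher and 10 to 34 lower placeholder genes. All 20 members remained in each case. TMM scaling gave 12 higher and 9 lower placeholder genes, DESeq2 size factors 10 and 11, and both lost 1110032F04Rik, 4930480K23Rik and 4930529M08Rik. A minimum mean count of 10 gave 12 and 12, and of 50 gave 7 and 8. The share over all genes was not computed under any of these settings, so nothing is read from the counts. The log2 ratio of each member kept its sign and stayed within its replicate SD under other scalings, the edgeR estimate and the removal of each sample. The 18 members with all DCA samples on the sham side were 18 under TMM and 18 to 19 without 1 DCA sample.

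With the replicate block, 0 members passed an adjusted p of 0.05 in edgeR in each of the 3 tested contrasts, as in the fit without it, and it changed no call. The fit without a filter is the same fit, since the filter removed no gene. The count was also 0 with DESeq2, with at least 10 counts in every sample (17 members tested), with only 2 groups fitted (19 members tested in DCA against LAM), at 0.10, with GC and length offsets, with those and the block, and without each sample. The members at an unadjusted p under 0.05 numbered 1, 2 and 1 for the dorsal column, antioxidant and oxidant comparisons. Leaving out a sample gave 0 to 2, 0 to 2 and 1 to 3. At least 10 counts in every sample, which leaves out Gm5152, gave 0, 2 and 0. The share over all genes at an unadjusted p was not computed for these alternative fits, so nothing is read from their counts. Same-numbered samples did not deviate together in every contrast. Depth limits the members of fewest reads, Gm9962 and Gm5152 above all.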

Other observations

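Of 139 placeholder features listed only in the FPKM table with a mean of at least 1 FPKM, 5 separated axotomized from sham samples. Apart from Gm13644 these were 2 transcripts each of D130009I18Rik and C530044C16Rik, all lower after axotomy. The more abundant D130009I18Rik transcript ran from 10.3 to 14.9 FPKM in sham and from 7.92 to 8.38 FPKM in axotomized samples, and the more abundant C530044C16Rik transcript from 2.19 to 4.06 and from 1.55 to 2.04 FPKM. Transcripts of 1 gene share reads and are not separate measurements. The share over all features listed only in the FPKM table was not computed, so nothing is read from the count of 5. Among the genes counted, 4 placeholder genes separated the samples below a mean count of 20, where the share over all genes was not computed either.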
